A study of Mus musculus with 6 samples.

Results

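The mRNA of 8 selenocysteine-containing redox enzymes was followed in the tibialis anterior (TA) muscle of aged wild-type (WT) and SELENOW knockout (KO) mice. The members were chosen by gene symbol: Gpx1, Gpx3, Gpx4, Txnrd1, Txnrd2, Txnrd3, Msrb1 and Dio2, each matched to a single row among the 55416 genes of the deposited count table. Both genotypes were on the C57BL/6N background, aged naturally to 24 months, with 3 libraries of TA muscle per genotype, and the study's methods describe its aged mice as male. A legend of the study gives 3 mice per genotype for these data, and p-values measure the spread between these samples. The KO line lacks the fourth exon of Selenow in all tissues after CRISPR editing with a pair of guide RNAs, so the deletion was not limited to muscle. The study assayed thioredoxin reductase activity and GPX4 protein in gastrocnemius muscle of aged mice, and the question here is whether the mRNAs of these enzymes differed between the genotypes in TA.

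Selenocysteine is an amino acid with selenium in the place of the sulfur of cysteine, and it is read from a UGA codon that would otherwise end translation. A stem-loop in the 3' part of the mRNA directs this reading, and when selenium is short some selenoprotein mRNAs, among them Gpx1 and Selenow, are known to decline more than others such as Gpx4. The glutathione peroxidases GPX1, GPX3 and GPX4 reduce peroxides with glutathione, the thioredoxin reductases TXNRD1, TXNRD2 and TXNRD3 return thioredoxin to its reduced form with NADPH, MSRB1 repairs oxidized methionine, and DIO2 converts the thyroid prohormone T4 into the active hormone T3. Selenium deficiency, which lowers many selenoproteins at once, causes muscle disease in several animals.

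None of the 8 mRNAs passed, in KO against WT muscle, the study's criteria for differentially expressed genes (DEGs). The estimates of 6 genes, Gpx1, Gpx4, Msrb1, Txnrd1, Txnrd2 and Dio2, were below those of WT, and those of Gpx3 and Txnrd3 were above, but the libraries of the genotypes overlapped for all 8. The highest levels were those of Gpx4, Msrb1 and Gpx3, and the lowest was that of Dio2, with 3 to 57 counts per library.

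The codons that make these genes selenoprotein genes are shown first, because they are the feature the members share. Each sequence was taken from the GENCODE M21 transcript (GRCm38) with the longest complete coding sequence, runs 5' to 3' in DNA letters, has 30 bases before the codon and up to 30 bases after it, ending at the stop codon where that comes sooner, and has the selenocysteine codon in capitals. For the glutathione peroxidases the codon lies in the middle or first part of the coding sequence, and the matching stretch of the pseudogene Gpx4-ps2, a processed copy of Gpx4, is shown because its reads may be shared with Gpx4.
Gpx1: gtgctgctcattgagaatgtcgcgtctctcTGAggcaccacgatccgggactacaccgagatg
Gpx3: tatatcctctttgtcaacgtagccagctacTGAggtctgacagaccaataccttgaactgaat
Gpx4: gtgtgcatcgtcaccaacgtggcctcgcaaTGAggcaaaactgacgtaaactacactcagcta
Gpx4-ps2: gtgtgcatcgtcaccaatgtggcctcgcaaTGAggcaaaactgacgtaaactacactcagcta

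The codon lies at chr9:108339451-108339453 in exon 1 of 2 of Gpx1, at chr11:54907256-54907258 in exon 2 of 5 of Gpx3 and at chr10:80054737-80054739 in exon 3 of 7 of Gpx4, all on the plus strand. In register with the codon, the Gpx1 and Gpx4 windows were identical at 55.6% of 63 bases, the Gpx1 and Gpx3 windows at 42.9% and the Gpx3 and Gpx4 windows at 46.0%. The Gpx4-ps2 window differed from that of Gpx4 at 1 base and kept the codon.

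For the thioredoxin reductases the codon is the last but 1 before the stop codon, and the window ends at that stop codon.
Txnrd1: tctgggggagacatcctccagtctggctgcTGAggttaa
Txnrd2: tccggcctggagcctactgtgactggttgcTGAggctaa
Txnrd3: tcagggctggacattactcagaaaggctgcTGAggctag

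This codon lies at chr10:82896037-82896039 in exon 15 of 15 of Txnrd1, at chr16:18477772-18477774 in exon 17 of 17 of Txnrd2 and at chr6:89674789-89674791 in exon 16 of 16 of Txnrd3, all on the plus strand. The windows of Txnrd2 and Txnrd3 were the most alike, with 71.8% of 39 bases identical, against 66.7% for Txnrd1 and Txnrd3 and 56.4% for Txnrd1 and Txnrd2.

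Msrb1 and Dio2 have their own contexts, and Dio2 carries 2 such codons.
Msrb1: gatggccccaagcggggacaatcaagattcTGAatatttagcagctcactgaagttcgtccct
Dio2, first codon: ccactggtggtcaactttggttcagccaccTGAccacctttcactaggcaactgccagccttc
Dio2, second codon: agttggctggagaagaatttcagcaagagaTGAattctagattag

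The Msrb1 codon lies at chr17:24740158-24740160 in exon 3 of 4, on the plus strand. Those of Dio2 lie at chr12:90729823-90729825 and chr12:90729424-90729426 on the minus strand, both in exon 2 of 2. The bases GG followed the codon in all 6 peroxidase and reductase genes and in neither Msrb1 nor Dio2.

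A UGA read as a stop far enough upstream of the last exon junction can mark an mRNA for nonsense-mediated decay, so the distance between the codon and that junction was measured. The codon lay before the last junction in 4 members, by 108 bases in Gpx1, 243 in Gpx3, 345 in Gpx4 and 37 in Msrb1. In the 3 thioredoxin reductases and Dio2 it lay in the last exon, 60 bases past the junction in Txnrd1 and Txnrd3, 121 in Txnrd2 and 165 and 564 in Dio2. Selenow itself has its codon 246 bases before the last junction. The estimated differences between genotypes overlapped across this division: the log2 fold changes, KO against WT, of Gpx1, Gpx3, Gpx4 and Msrb1 were -0.15, 0.12, -0.18 and -0.17, and those of Txnrd1, Txnrd2, Txnrd3 and Dio2 were -0.25, -0.21, 0.037 and -1.001. The division was by position alone, with Msrb1 the nearest to the junction, so it does not sort the members by whether they can be decayed. Decay was not tested.

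**Figure D1:**
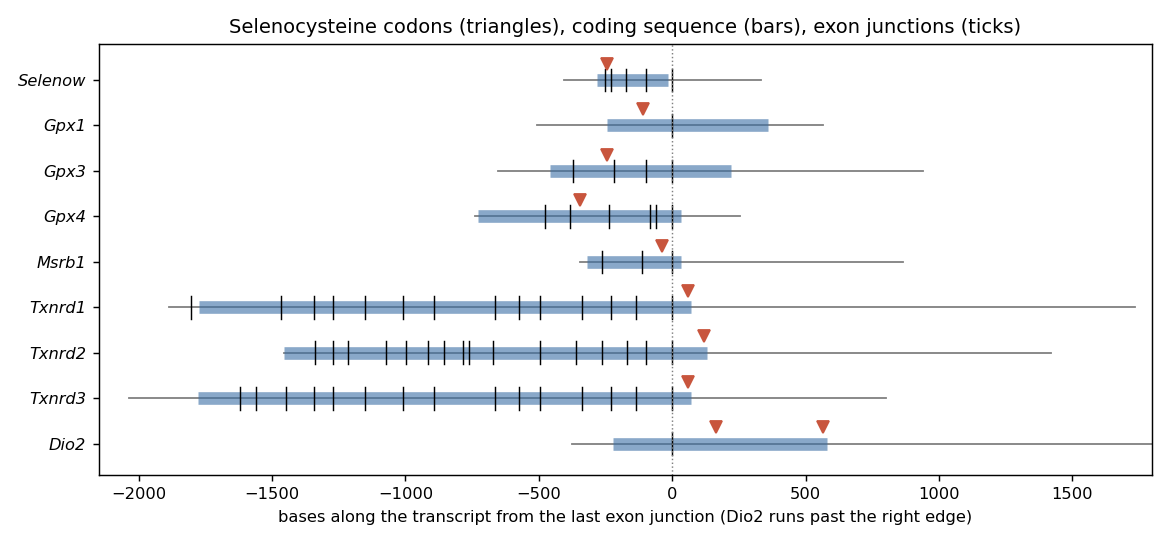
Transcripts of Selenow and the 8 members drawn to scale, with position in bases from the last exon junction on the horizontal axis and 1 row per gene. Bars mark coding sequence, ticks exon junctions and triangles selenocysteine codons, and the Dio2 transcript runs past the right edge. The codon lies left of the last junction in Selenow, Gpx1, Gpx3, Gpx4 and Msrb1 and right of it in Txnrd1, Txnrd2, Txnrd3 and Dio2.

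RNA sequencing gave total counts of 25351976 to 29111213 per library in WT and 27345022 to 27815342 in KO. Mitochondrially encoded genes took 29.1% to 37.3% of the counts in WT and 35.4% to 40.3% in KO. The fast fiber markers, which define TA muscle, were all detected, with summed CPM (counts scaled to library size) of 104647 to 132095 in WT and 113462 to 129783 in KO, and no marker of that list passed the DEG criteria. Selenow, the targeted gene, had a CPM, scaled by the trimmed mean of M values (TMM), of 268, 245 and 219 in replicates 1, 2 and 3 of WT, against 193, 212 and 210 in those of KO. The KO libraries all lay below the WT libraries, where the genotypes were separate, in either direction, for 15.4% of all tested genes. The log2 fold change of Selenow was -0.25 (SE 0.14, adjusted p = 0.604 in edgeR). The counts are summed over all exons of a gene, so they did not measure the loss of the deleted exon.

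Levels were compared between genes per kilobase of counted length, as RPKM on the TMM-scaled libraries. In WT muscle the order of the mean levels was Gpx4 (52.7), Msrb1 (32.3), Gpx3 (32.2), Gpx1 (15.8), Txnrd1 (5.72), Txnrd2 (1.55), Txnrd3 (1.17) and Dio2 (0.159), against 331 for Selenow. Msrb1 and Gpx3 were neighbours that did not differ beyond their spread: their WT ranges of 30.5 to 33.4 and 21.3 to 48.5 overlapped, and Msrb1 was the higher in 3 of 6 libraries. Their order turned when levels were expressed as TPM (transcripts scaled to the library total), where Gpx3 averaged 36.4 and Msrb1 36.1. The WT ranges of RPKM of all other neighbours in the order were separate. Gpx3, though not the neighbour of Gpx4 by RPKM, overlapped with it too, with WT ranges of 21.3 to 48.5 and 45.7 to 56.3. In KO replicate 2 Gpx3 was at 39.8 and Gpx4 at 39.7. Txnrd2, the mitochondrial reductase, and Txnrd3, which is best known from testis, were close by this measure. Their WT ranges were 1.44 to 1.71 and 0.987 to 1.30, and Txnrd2 was the higher in 5 of 6 libraries. For some genes the counted length exceeded that of the transcript used for the codons. It was 4401 against 2874 bases for Txnrd2 and 7086 against 3622 for Txnrd1. Both lengths were 2836 bases for Txnrd3 and 736 for Selenow. The closeness and order of levels thus depend on the lengths used, and levels per transcript length were not computed.

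Summed over the 8 genes, the RPKM was 140, 162 and 123 in replicates 1, 2 and 3 of WT, against 124, 126 and 146 in those of KO, so the libraries of the genotypes overlapped. Gpx4 made up 34.8% to 40.1% of this sum in WT and 31.5% to 37.2% in KO. In percentage points Gpx3 had the share with the widest range, from 17.3% in WT replicate 3 and KO replicate 1 to 31.6% in KO replicate 2. The 3 reductases together stayed small beside the peroxidases: Txnrd1 held 3.29% to 4.84% and Txnrd2 and Txnrd3 at most 1.23% and 1.01% in any library. Among the 15623 tested genes, Gpx4 lay at the 97.0 percentile of WT RPKM, Txnrd1 at 78.9, Txnrd2 at 50.4 and Dio2 at 6.86.

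**Figure D2:**
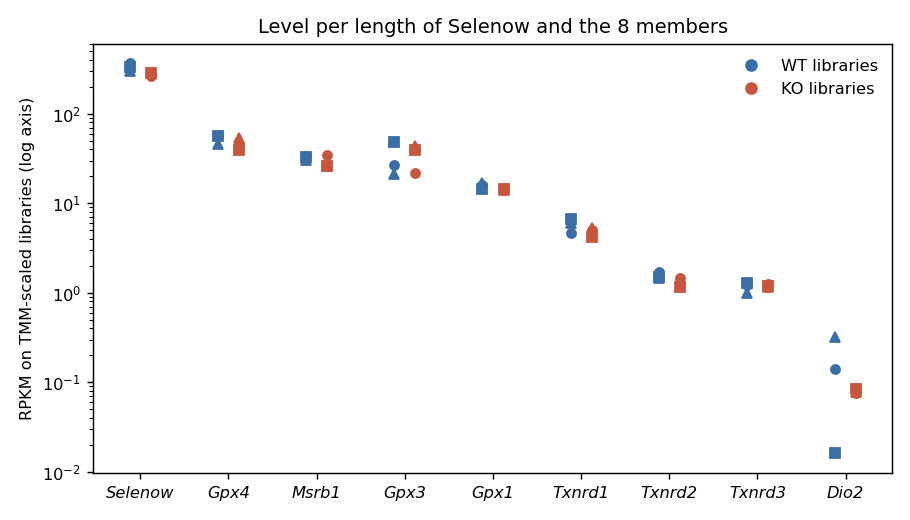
Level per length of Selenow and the 8 members, as RPKM on TMM-scaled libraries on a log axis, ordered by the WT mean. Each symbol is a library, blue for WT and red for KO, with circle, square and triangle for replicates 1, 2 and 3. Gpx4, Msrb1, Gpx3 and Gpx1 lie above the reductases, and Dio2 is the lowest and the most spread in WT, from 0.0161 to 0.323.

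For the comparison of genotypes DEGs were taken by the criteria of the study, a fold change above 1.5 or below 0.7 together with an unadjusted p below 0.05, here from the quasi-likelihood test of edgeR over 15623 genes. All 8 members passed the filter on low counts. Of these, 0 were called, where 5.35% of all tested genes were (836 genes, with 3.14% of the tested genes lower in KO and 2.21% higher). No member had an unadjusted p under 0.05, against 9.89% of all tested genes, and the adjusted p ranged from 0.637 to 0.963 (edgeR). With DESeq2, the tool of the study, 0 of the 8 were called as well, against a background of 4.94%. By that tool 0 members had an unadjusted p below 0.05, against 8.26% of genes, and the lowest p was 0.158, for Txnrd1. In edgeR 0 of the tested genes reached an adjusted p below 0.05, while DESeq2 gave 45 such genes (0.288%), of which 0 were members.

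The 95% intervals say how large a difference these libraries could have missed. For Gpx1, Gpx4, Msrb1 and Txnrd3, 4 of the 8, the whole interval of the fold change lay inside the thresholds of 0.7 and 1.5. This held for Gpx1 in all 13 other edgeR settings (7 with all libraries, 6 with a library left out). For Gpx4, whose lower bound was 0.701, it did not hold in 3 of the 7 settings with all libraries, where that bound was 0.690 with pseudogene counts added, 0.682 with the replicate block and 0.6999 with robust estimation off, nor in 3 of the 6 with a library left out (bounds of 0.625 to 0.677). For Msrb1 and Txnrd3 it held in all 7 settings with all libraries and in 4 of the 6 with a library left out. For Txnrd1 and Txnrd2 it reached just below 0.7, and for Gpx3 and Dio2 it was too wide to bound a difference.

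**Figure D3:**
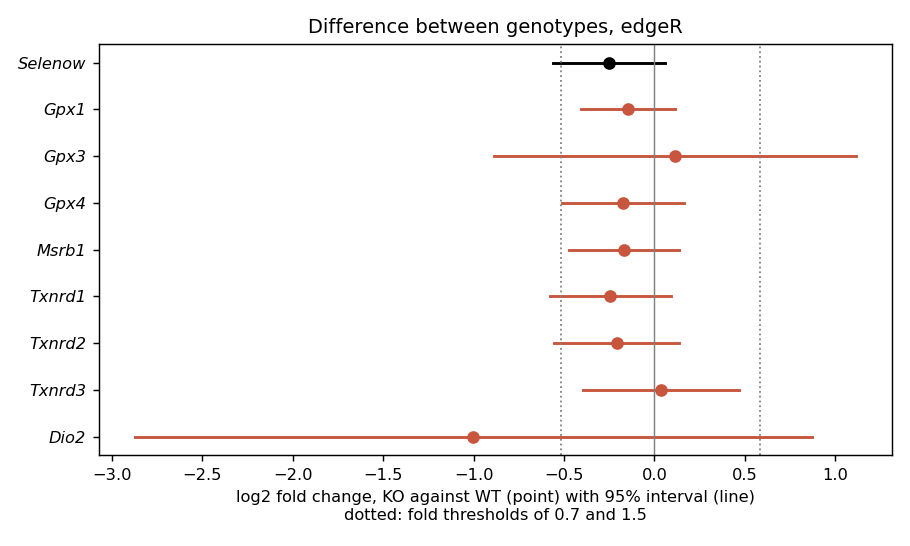
Log2 fold change in KO against WT for Selenow (black) and the 8 members (red), with points for the estimate of edgeR's quasi-likelihood fit and lines for its 95% interval, over 3 libraries per genotype. Dotted lines mark the fold changes of 0.7 and 1.5. Every interval includes 0, and that of Dio2, from -2.88 to 0.873, is the widest.

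Gpx1 encodes the abundant cytosolic and mitochondrial glutathione peroxidase. Its TMM-scaled CPM was 22.8, 20.8 and 24.5 in replicates 1, 2 and 3 of WT, against 20.8, 20.6 and 20.2 in those of KO. The KO libraries lay at the low edge of the WT range, and KO replicate 1 was above WT replicate 2 by a margin smaller than the spread within either genotype. The 3 WT libraries averaged 22.7 ± 1.84 (SD) and the 3 KO libraries 20.5 ± 0.336, a fold change of 0.904 (95% interval 0.754 to 1.08, adjusted p = 0.720 from edgeR). Red blood cells are rich in GPX1. The summed CPM of the 5 red blood cell markers, all tested, was 205, 293 and 174 in replicates 1, 2 and 3 of WT. In those of KO it was 155, 165 and 142, without overlap. WT replicate 2, with the highest of these sums, had the lowest Gpx1 of WT. WT replicate 3, with the lowest WT sum, had the highest Gpx1. Single genes were separate by genotype for 15.4% of all tested genes, and the markers Hba-a2 and Alas2 were not. The 2 of these 5 that passed the DEG criteria were lower in KO, where 3.14% of all tested genes passed as lower. The part of red blood cells in the Gpx1 values was not tested. In bulk muscle, fewer cells of a type and less RNA per cell cannot be told apart.

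Gpx3 encodes the secreted peroxidase of blood plasma, made mainly in kidney. It was the member with the largest spread among those of more than trace level, with a TMM-scaled CPM of 48.3, 88.0 and 38.7 in replicates 1, 2 and 3 of WT, against 39.0, 72.2 and 78.5 in those of KO. WT replicate 2 and KO replicates 2 and 3 were high and the other 3 libraries were low, so the split ran across the genotypes. The 3 WT libraries averaged 58.3 ± 26.1 (SD) and the 3 KO libraries 63.2 ± 21.2, a fold change of 1.08 (95% interval 0.541 to 2.17, adjusted p = 0.950 from edgeR). The summed CPM of the 6 fibroblast markers was 112, 69.1 and 193 in replicates 1, 2 and 3 of WT, against 116, 60.1 and 98.1 in those of KO. The 3 lowest of these sums lay in the 3 libraries with the highest Gpx3, and so did the 3 lowest sums of the 7 slow fiber and the 10 leukocyte markers and the 3 highest sums of the 12 fast fiber markers. Marker by marker this was the order of 3 of the 6 fibroblast, 4 of the 7 slow fiber, 3 of the 10 leukocyte and 6 of the 12 fast fiber genes, and the others did not follow it. For example, the T cell marker Cd3e was 0.811, 1.34 and 1.153 in replicates 1, 2 and 3 of WT, against 1.37, 2.94 and 3.14 in those of KO (TMM-scaled CPM). By the DEG criteria 1 of the 8 tested leukocyte markers, Cd3e, was higher in KO and 1, Csf1r, was lower. Of all tested genes 2.21% were higher and 3.14% lower by these criteria. The part of these cell types in the Gpx3 values was not tested. The estimate for Gpx3 changed sign when a library was left out, at -0.11 without WT replicate 3, -0.069 without KO replicate 3 and -0.0034 without WT replicate 1 on the log2 scale, and it was 0.54 without WT replicate 2.

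Pim1, which encodes a serine/threonine kinase, was among the 2 genes whose profiles over the 6 libraries were most like that of Gpx3. The measure of likeness was the root mean square difference between log2 CPM profiles, each centred on its own mean, among 14265 tested genes with a symbol, pseudogenes left out, and it was 0.123 for Pim1, where the standard deviation of Gpx3 itself was 0.526. Pim1 had a TMM-scaled CPM of 6.33, 11.5 and 6.09 in replicates 1, 2 and 3 of WT, against 6.28, 11.05 and 11.9 in those of KO. It was high in the same 3 libraries as Gpx3. Chac1, which encodes an enzyme that breaks down glutathione, also had its 3 highest values in these libraries, at 40.5 in WT replicate 2 and 26.5 and 22.7 in KO replicates 2 and 3 (TMM-scaled CPM). It was noted after its values were seen.

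Gpx4 encodes the peroxidase that reduces lipid peroxides in membranes and so protects cells from ferroptosis. Its TMM-scaled CPM was 96.5, 97.1 and 78.7 in replicates 1, 2 and 3 of WT, against 79.7, 68.4 and 93.1 in those of KO. WT replicate 3 lay among the KO libraries and KO replicate 3 close to the other WT libraries. The 3 WT libraries averaged 90.8 ± 10.4 (SD) and the 3 KO libraries 80.4 ± 12.4, a fold change of 0.886 (95% interval 0.701 to 1.12, adjusted p = 0.739 from edgeR). Trmt112 and Borcs6 had the profiles most like it, at 0.0324 and 0.0396.

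The reads of Gpx4 may be shared with its copy Gpx4-ps2, which lies elsewhere on chromosome 10 and whose annotated transcripts were 99.6% and 99.7% identical to the Gpx4 mRNA over 555 and 762 aligned bases. Of 633 stretches of 150 bases, the read length, in the longer of these transcripts, 313 occur unchanged in Gpx4 transcripts. The counts of Gpx4-ps2 were 22.1% to 26.0% of those of Gpx4 in every library. Its log2 fold change was -0.30 (standard error 0.14, adjusted p = 0.510 from edgeR), and with its counts added to Gpx4 the log2 fold change of Gpx4 went from -0.18 to -0.20. The levels of this pair are therefore uncertain, while adding the counts moved the estimate by less than its standard error of 0.15.

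Msrb1 encodes the selenoprotein form of methionine sulfoxide reductase B, a cytosolic and nuclear enzyme. Its TMM-scaled CPM was 42.0, 41.6 and 38.4 in replicates 1, 2 and 3 of WT, against 43.0, 32.4 and 33.2 in those of KO. The WT values were the closest together of all members, with a coefficient of variation of 4.88%. KO replicates 2 and 3 were below all WT libraries, while KO replicate 1 was above all of them. The 3 WT libraries averaged 40.6 ± 1.98 (SD) and the 3 KO libraries 36.2 ± 5.90, a fold change of 0.890 (95% interval 0.721 to 1.10, adjusted p = 0.723 from edgeR). Over the fits without 1 library the log2 fold change of Msrb1 ran from -0.31 to -0.092. Without KO replicate 1 it was -0.31 (unadjusted p = 0.0504 from edgeR), against -0.17 with it. The nearest profiles were those of Pofut2 at 0.0206 and Cyb561a3 at 0.0316.

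Txnrd1 encodes the cytosolic thioredoxin reductase. Its TMM-scaled CPM was 32.6, 46.7 and 42.3 in replicates 1, 2 and 3 of WT, against 35.5, 29.9 and 37.1 in those of KO. WT replicates 2 and 3 were above all KO libraries, and WT replicate 1 was within the KO range. The 3 WT libraries averaged 40.5 ± 7.21 (SD) and the 3 KO libraries 34.2 ± 3.77, a fold change of 0.844 (95% interval 0.669 to 1.06, adjusted p = 0.637 from edgeR). This gene had the lowest unadjusted p of the members, 0.138 in edgeR. Without WT replicate 1 the log2 fold change was -0.38 (unadjusted p = 0.0186, adjusted p = 0.478 from edgeR), which stayed short of the fold threshold, and without WT replicate 2 it was -0.13 (unadjusted p = 0.461 from edgeR). Naa25 at 0.0354 and Nek9 at 0.0460 had the nearest profiles.

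Txnrd2 encodes the mitochondrial enzyme and had a TMM-scaled CPM of 7.54, 6.54 and 6.36 in replicates 1, 2 and 3 of WT, against 6.40, 5.06 and 6.21 in those of KO. Only KO replicate 1 reached into the WT range. The fold change was 0.866 (95% interval 0.681 to 1.10, adjusted p = 0.696 from edgeR). Its nearest profiles were Mief2 at 0.0257 and Rnaseh2a at 0.0347.

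Txnrd3 encodes thioredoxin-glutathione reductase, and its TMM-scaled CPM was 3.45, 3.67 and 2.80 in replicates 1, 2 and 3 of WT, against 3.54, 3.34 and 3.29 in those of KO. All KO libraries lay inside the WT range. Without WT replicate 3 the log2 fold change turned from 0.037 to -0.072. The fold change was 1.03 (95% interval 0.762 to 1.38, adjusted p = 0.963 from edgeR). Ddx39b at 0.0337 and Mpdu1 at 0.0406 had the nearest profiles. Taken by library, the 3 reductases were not parallel: WT replicate 1 was the highest WT library for Txnrd2 and the lowest for Txnrd1.

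Dio2 was near the limit of detection, with 20, 3 and 57 counts in replicates 1, 2 and 3 of WT, against 11, 12 and 12 in those of KO. WT replicate 2 was thus at 3 counts, and 3 counts correspond to a CPM of 0.103 to 0.118 before TMM scaling, depending on the library. In TMM-scaled CPM the WT libraries stood at 0.811, 0.0934 and 1.88 and the KO libraries at 0.443, 0.489 and 0.449. The KO libraries were close together and lay inside the WT range. Gm26512, a noncoding gene on the opposite strand, overlaps 100 of the 5815 counted bases of Dio2 and had 0 to 4 counts per library. The fold change was 0.500 with a 95% interval of 0.136 to 1.83 (adjusted p = 0.723 from edgeR), and it rested on WT replicate 3: the log2 fold change was -1.001 with all libraries, 0.082 without that library and -1.54 without WT replicate 2. Without WT replicate 2 the gene passed the DEG criteria (unadjusted p = 0.00532, adjusted p = 0.352 from edgeR), as it did with no filter on low counts (log2 fold change -1.003, unadjusted p = 0.0309, adjusted p = 0.488 from edgeR).

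WT replicate 3 also had the highest summed CPM of the slow fiber markers, at 87.7 against 30.3 to 58.3 in the other 5 libraries, of the leukocyte markers, at 65.1 against 15.7 to 28.4, and of the fibroblast markers, at 193 against 60.1 to 116. WT replicate 3 was the highest library for 6 of the 6 fibroblast, 6 of the 10 leukocyte and 4 of the 7 slow fiber markers. The slow myosin genes did not follow the slow fiber sum: Myh7 was at 1.153 in WT replicate 3 against 0.823 to 3.67 in the other libraries, and Myl2 at 1.12 against 0.775 to 1.61 (TMM-scaled CPM). The satellite cell markers Pax7, Myf5 and Cdh15, 3 of 4 in that list, were also highest in WT replicate 3. Each of these slow fiber, leukocyte and fibroblast markers had at least 3 counts summed over the libraries, and their part in the Dio2 values was not tested. Brown fat is a known site of DIO2, and of its 3 markers Ucp1 had 0 counts in 5 libraries and 2 in KO replicate 2, Cidea 9 to 22 counts and Elovl3 2 to 6 counts in every library. Their summed CPM was 0.405 to 1.05 in WT and 0.571 to 1.01 in KO, which overlap, and their part was not tested. The nearest profiles to that of Dio2 were Adam19 at 0.373 and Capn6 at 0.374, where the standard deviation of Dio2 itself was 1.27, and both genes had their highest TMM-scaled CPM in WT replicate 3 (3.79 and 4.18).

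**Figure D4:**
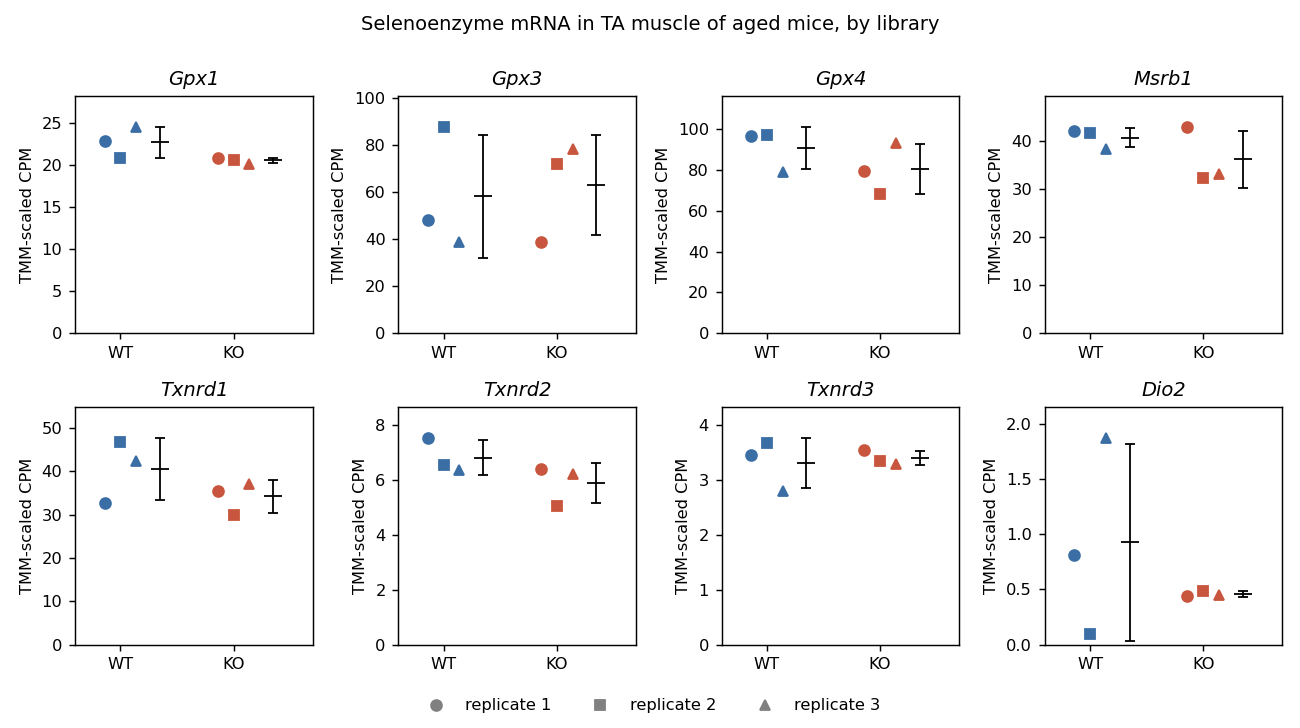
TMM-scaled CPM of each member by library, with a panel per gene and its own vertical axis from 0. Symbols are libraries (circle, square and triangle for replicates 1, 2 and 3, blue for WT and red for KO), and the bar beside them gives the mean and SD over 3 libraries. WT and KO libraries overlap in every panel, Gpx3 splits across the genotypes, and Dio2 in WT runs from 0.0934 to 1.88.

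Across the members, the median log2 fold change was -0.17, beside -0.0042 for all 15623 tested genes, and 6 of the 8 estimates were below 0, beside 50.6% of all tested genes. The libraries of the genotypes were separate for 0 of the 8, where they were separate for 15.4% of all tested genes. The lowest library was KO replicate 2 for 4 members, Gpx4, Txnrd1, Txnrd2 and Msrb1, and it was the lowest for 19.7% of all tested genes. The highest library was WT replicate 2 for 4 members, Gpx3, Gpx4, Txnrd1 and Txnrd3, and it was the highest for 16.0% of all tested genes. The summed CPM of the 5 mural cell markers, genes of the cells around small vessels, was 144 to 184 in WT and 212 to 279 in KO. Rgs5 made up most of this sum, at 122 to 150 in WT and 179 to 236 in KO. Acta2 overlapped between the genotypes, at 5.91 to 13.8 in WT and 8.53 to 10.8 in KO, while Pdgfrb, Myh11 and Kcnj8 did not. By the DEG criteria 2 of the 5 were higher in KO, where 2.21% of all tested genes were. The part of mural cells in the members' values was not tested. The pair of members with the most similar profiles was Gpx4 and Txnrd2, with a root mean square difference of 0.113, followed by Txnrd2 and Msrb1 at 0.116, and every pair with Dio2 was at 1.08 or more.

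Of 10 family genes outside the members, 5 passed the filter on low counts. Gpx5, Gpx6 and Dio1 had 0 counts in all libraries, Gpx2, the intestinal peroxidase, had 1 count in total, and Dio3, which inactivates thyroid hormone, had a TMM-scaled CPM of at most 0.198. Msrb3, the endoplasmic reticulum and mitochondrial relative of Msrb1 that uses cysteine, had a TMM-scaled CPM of 99.3 to 111 in WT and 95.5 to 128 in KO. None of the 5 tested relatives passed the DEG criteria, and the lowest unadjusted p, 0.154 in edgeR, was that of Msra, which repairs the other stereoisomer of oxidized methionine (log2 fold change -0.23).

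Thioredoxins and peroxiredoxins, the partners of the reductases, were tested for all 13 genes of that list. Of these, 1 passed the DEG criteria as lower in KO and 0 as higher, where 5.35% of all tested genes passed. Below 0 were 11 of the 13 estimates, beside 50.6% of all tested genes, and the median log2 fold change was -0.17. The gene that passed was Txn1, the cytosolic thioredoxin that TXNRD1 reduces. It had a TMM-scaled CPM of 16.1, 12.9 and 14.9 in replicates 1, 2 and 3 of WT, against 11.6, 7.46 and 11.1 in those of KO. The genotypes did not overlap, as held for 15.4% of all tested genes, and the lowest value was that of KO replicate 2. Txn1 fell by 0.54 on the log2 scale (SE 0.17, unadjusted p = 0.00850, adjusted p = 0.3402 in edgeR). Without KO replicate 2, 0 genes of these lists passed the criteria. Txn2, its mitochondrial counterpart, had a log2 fold change of -0.075, and the peroxiredoxins Prdx1, Prdx2, Prdx3, Prdx4, Prdx5 and Prdx6 had -0.27, -0.17, -0.12, -0.011, -0.035 and -0.23, none past the criteria.

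Glutathione synthesis and recycling, the supply for the peroxidases, had 14 of 15 genes tested, 0 called and a median log2 fold change of 0.0079. The lowest unadjusted p was that of Gss, glutathione synthetase, at 0.00814 (edgeR, adjusted p = 0.3401). Its TMM-scaled CPM was 8.92, 7.50 and 8.37 in replicates 1, 2 and 3 of WT, against 14.2, 13.4 and 8.94 in those of KO. The genotypes did not overlap, as held for 15.4% of all tested genes, and the log2 fold change of Gss, 0.56, stayed just under the fold threshold. Gclc and Gclm, the subunits of the enzyme for the first step, had log2 fold changes of 0.12 and -0.29, and Gsr, glutathione reductase, had -0.29 (unadjusted p = 0.0744 in edgeR).

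NADPH supply had 10 of 10 genes tested and 0 called, with a median log2 fold change of 0.029. Idh2, the mitochondrial isocitrate dehydrogenase that makes NADPH, had the lowest unadjusted p (0.0309 in edgeR, adjusted p = 0.461) and a log2 fold change of 0.53. Its TMM-scaled CPM was 41.3, 32.03 and 33.6 in replicates 1, 2 and 3 of WT, against 34.4, 57.2 and 63.1 in those of KO, and KO replicate 1 lay inside the WT range. G6pdx and Pgd, of the pentose phosphate pathway, had -0.063 and -0.25 on the log2 scale.

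In the remaining lists no gene passed the DEG criteria. Among superoxide dismutases and catalase, all 4 tested, the lowest unadjusted p was 0.347, for Sod1 (log2 fold change -0.15, edgeR). Among 6 tested genes of lipid peroxidation and ferroptosis it was 0.0509, for Fdft1, squalene synthase, whose log2 fold change was 0.32 (edgeR). Among 10 tested genes of thyroid hormone transport, receptors and targets it was 0.204, for Ncor1, a nuclear receptor corepressor (log2 fold change 0.18, edgeR), and the hormone targets Klf9, Hr and Thrsp had log2 fold changes of 0.094, -0.043 and 0.32. Over these lists together, with the members left out, 62 of 71 genes were tested and 1 was called, against the background of 5.35%, and the median log2 fold change was -0.039.

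**Figure D5:**
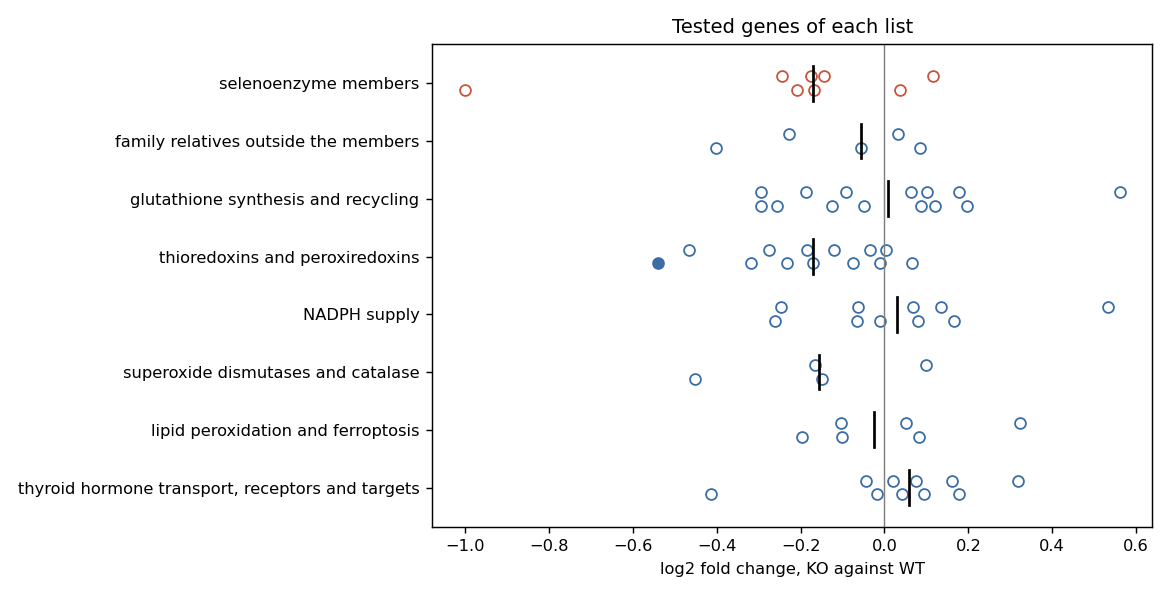
Log2 fold change in KO against WT (horizontal axis) for each tested gene of the member list (red) and of the 7 other lists (blue), with a black line at the median of each list. Filled circles passed the DEG criteria and open circles did not; rows are split into 2 heights only to separate the points. The single filled circle is Txn1, at -0.54.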

How the data were processed

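The authors sequenced TA muscle RNA as 150-base paired-end reads, used Hisat2 for alignment and featureCounts for the number of reads on each gene. The deposited table holds raw counts for 55416 genes in 6 libraries, without normalization, and a column of counted gene lengths. The methods name GRCm38 and the submitters' processing notes GRCm39. Of 52083 genes placed by GENCODE M21 (GRCm38), 1494 had the same start and end in the table, so positions and sequences here come from GENCODE M21, which also gave symbols for 52083 of the 55416 genes. The first WT column carries no number and was taken as replicate 1, since the others name 2 and 3. The table has a second entry for Nnt, with nearly equal counts for an entry lying wholly within the other, so reads in overlapping genes were counted for both, and the longer entry was used. Strand setting and treatment of multiply mapped reads are not given in the sources used here.

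Genes were filtered with filterByExpr, scaled by TMM factors (0.893 to 1.20) and tested with edgeR (version 4.0.16, R 4.3.3) by a robust quasi-likelihood fit of genotype, with Benjamini-Hochberg adjustment over 15623 genes. Log2 profiles used a prior count of 1, and standard errors and 95% intervals came from the quasi-likelihood F statistic. The members and lists were chosen with earlier results of these data known. Named genes are Selenow, the members, in each list the DEGs and the gene with the lowest unadjusted p, and the 2 nearest profiles of each member, of which 1 is not reported here; other list genes named were chosen for their known roles, and Chac1 after its values were seen. Replicates differed by more than sampling noise (chi-square per degree of freedom 21.0 to 79.2). Alternatives were DESeq2 (version 1.42.0), its size factors, other filters, robust estimation off, a replicate block, leaving out mitochondrially encoded genes, adding pseudogene counts, TPM for levels, and leaving out each library. The steps were tested on simulated counts.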

Additional observations from a re-analysis of the deposited data

How the results depend on the processing

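With 3 libraries per genotype and at most 57 counts per library, a difference in Dio2 could not be bounded. The count of 0 members called held with DESeq2, with its size factors in edgeR, with at least 10 counts in every library (where Dio2 was not tested), with robust estimation off, without mitochondrially encoded genes, with pseudogene counts added and with adjusted p under 0.05 as the rule. With no filter on low counts it was 1, Dio2, whose log2 fold change was then -1.003 and past the criteria. Leaving out each library in turn gave 0 to 1 members called and 0 to 3 genes called in the other lists, against 1 with all libraries: 0 without KO replicate 2, 2 without WT replicate 1 or KO replicate 3, and 3 without WT replicate 2 or KO replicate 1. In those fits the log2 fold change ranged from -0.11 to 0.54 for Gpx3, from -0.072 to 0.13 for Txnrd3 and from -1.54 to 0.082 for Dio2, so their sign was not stable, and the value of Gpx3 was -0.0034 without WT replicate 1, -0.11 without WT replicate 3 and -0.069 without KO replicate 3. The estimates of Selenow, Gpx1, Gpx4, Msrb1, Txnrd1 and Txnrd2 stayed below 0 under every alternative run for them, which for Selenow leaves out the adding of pseudogene counts. With a WT library left out, 6 to 8 of the 8 members kept their place in the order of levels, and 6 of 8 did with TPM. Libraries that share a replicate number did not deviate together (correlations 0.060, 0.044 and -0.074 over genes), and not every library correlated best with its own number. With the replicate block 890 genes were called in place of 836, and 0 members, with -0.57 for Dio2. Over all genes, 836 were called with the filter and 1780 of 31780 without it. The cause of these shifts was not tested.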
